A study of Mus musculus with 12 samples.

Results

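ATF4 is a transcription factor of the bZIP family that turns on genes for making, importing and charging amino acids. Its level rises when kinases that sense amino acid shortage, endoplasmic reticulum stress or other insults phosphorylate the translation factor eIF2, which lowers protein synthesis in general but lets the ATF4 coding region be translated. This program, the integrated stress response, also runs in growing T cells, where IL-2 and antigen receptor signals raise the demand for amino acids through mTORC1 and MYC. mRNA levels, which were measured here, do not show how much ATF4 protein was made. The genes examined were *Atf4* and 31 others from a list of genes with these functions, found by equality of the gene name, and they made up 32 of the 24439 genes in the expression tables. They were put in 4 roles: 8 transcription factors and stress targets, 6 enzymes of amino acid and one-carbon synthesis, 6 amino acid transporters and 12 cytosolic aminoacyl-tRNA synthetases, the enzymes that join an amino acid to its tRNA.

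The RNA-Seq libraries came from CD4 T cells that were isolated with CD4 beads from spleens of C57BL/6 C42 mice, a line kept on C57BL/6J with a 130 kb piece of the human IL3/CSF2 locus as a transgene. All cells were first made into T blasts, dividing recently activated cells, with 2 ug/ml of the lectin concanavalin A for 40 h, and were then grown in 50 U/ml IL-2. The 4 groups held 3 libraries each. TB IL-2 cells stayed in IL-2, TB IL-2nil cells spent their last 16 h without it, and TB+ IL-2 and TB+ IL-2nil cells were treated in the same 2 ways and then given PMA (20 ng/ml) and a calcium ionophore (PMA/I) for 2 h, which imitate antigen receptor signals. The sources differ on how long the cells were in IL-2 before it was removed, with 30 h in the methods and 2 days in the labels. No source used here gives the age or sex of the mice, or says whether libraries of a group came from separate mice or cultures, so P-values measure the spread between these libraries, which may be technical. With bulk RNA, fewer cells of a kind and less RNA per cell cannot be told apart.

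A pair of libraries was placed against its labels. A supplementary list of changed genes gives a value for each library. There the values of the library labelled TB IL-2nil replicate 3 stand under TB+ IL-2 replicate 3 and the reverse. After quantile normalization of the deposited values, 100% of 1381 genes matched within 0.1% in this placement, and at most 1.59% in any other. The *Il2* gene, a target of PMA/I, was at 1368 FPKM in the library labelled TB IL-2nil replicate 3, as in the other stimulated libraries (1095 to 2374 FPKM), and at 0.29 FPKM in the one labelled TB+ IL-2 replicate 3, as in the other unstimulated ones (0 to 1.18 FPKM). Both libraries were therefore placed as in that list, and results with the labels kept, or without both libraries, are given beside. All 6 markers of CD4 T cells were above 66 TPM in every library. All 6 were lower in each TB IL-2 library than in any TB IL-2nil library, 4 of the 6 at an adjusted P under 0.05 in the limma fit described below. Of markers of other cells, the 4 of B cells summed to 23.2 to 29.6 TPM in TB IL-2nil, 5.94 to 10.4 in TB IL-2, 5.49 to 12.7 in TB+ IL-2nil and 2.36 to 3.31 in TB+ IL-2, the 2 of CD8 T cells to 6.91 to 31.9, the 5 of myeloid cells to 1.74 to 4.88, the 2 of regulatory T cells to 1.32 to 9.51 and the 3 of NK cells to at most 0.303 TPM, with *Ncr1* at 0 in all 12. B cell markers thus moved opposite to most of the genes described here, with 4 of 4 lower in TB IL-2 than in TB IL-2nil. The markers of CD4 T cells were also lower in TB IL-2. What part B cells or CD4 T cells had in the results was not tested.

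Levels are in TPM, transcripts per 1000000, a length-corrected share of all RNA in a library, scaled so that all libraries had the same upper quartile. Differences are in log2(TPM + 1) with their standard error (SE), and a gene is said to have passed, risen or fallen when its adjusted P in limma, over all 12442 genes above 1 TPM in at least 1 library, was under 0.05. Of the 32 genes, 30 were tested. *Vldlr*, a lipoprotein receptor gene, and *Slc7a11*, the cystine transporter, were both under 1 TPM in all libraries, at 0 to 0.572 TPM and 0 to 0.602 TPM. TB+ IL-2 replicate 2 stood apart for these genes. It was the highest of its 3 libraries in 27 of the 30 genes, against 32.2% of all genes tested, and held 66.4 TPM of *Chac1*, 48.1 TPM of *Trib3* and 68.7 TPM of *Asns* where the other two libraries held 9.70 to 13.6, 6.25 to 6.34 and 16.9 to 18.9 TPM.

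Many ATF4 targets carry a composite C/EBP-ATF element near their start, with the core TGATGNAA. In the promoter windows of RefSeq (GRCm38.p6, 250 bases before to 50 bases after each gene start), 25 of the 32 genes had a window, and 11 of these held the 8 letters on either strand, against 4.51% of 27025 genes. The stricter TGATGCAA was in 8 of the 25 genes and in 1.03% of all genes, and the E-box CACGTG, which MYC can bind, in 4 of 25 and 8.09%. The genes were listed for the functions of the ATF4 program, so these shares are a description and no test. *Vldlr* and *Slc7a11*, under 1 TPM in all libraries, are among the 11, and so is *Trib3*. *Psat1*, *Phgdh*, *Mthfd2*, *Shmt2*, *Slc7a1* and *Sesn2* had a window but no match to TGATGNAA. Whether a match went with a difference in level was not tested. A match is a description of letters and not a binding site. The stretches below show 5 of these matches, from factors, synthesis enzymes and synthetases whose values follow, 5′ to 3′ along the gene's strand, with the match in capitals and up to 11 bases on either side.
Chac1, chr2:119351038-119351067, plus strand: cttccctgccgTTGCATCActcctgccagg
Nupr1, chr7:126625562-126625591, minus strand: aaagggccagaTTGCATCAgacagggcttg
Asns, chr6:7693214-7693243, minus strand: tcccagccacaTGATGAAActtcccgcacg
Gars, chr6:55037960-55037989, plus strand: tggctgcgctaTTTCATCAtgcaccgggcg
Tars, chr15:11399659-11399684, minus strand: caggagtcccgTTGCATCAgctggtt
The matches begin 193 bases before the start of *Chac1*, 110 before *Nupr1*, 23 before *Asns*, 30 before *Gars* and 15 before *Tars*. *Chac1*, *Nupr1* and *Tars* hold the same 8 letters, TTGCATCA, which is TGATGCAA on the other strand. *Asns* and *Gars* match TGATGNAA but not TGATGCAA, *Asns* as written and *Gars* on the other strand. In the older mm9 gene models (GENCODE M1), some of which start further upstream, the stretches of *Nupr1* and *Asns* overlap an exon. Coordinates in the rest of the text are those of the mm9 models.

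Cells kept in IL-2 had more mRNA of most of these genes than cells without IL-2, for example 8.16-fold for *Psat1*, 6.06-fold for *Slc7a5* and 1.66-fold for *Sesn2*, on the log2(TPM + 1) scale. Of 30 genes tested, 21 were higher in TB IL-2 than in TB IL-2nil and none lower, while among all genes tested 17.3% were higher and 22.3% lower. More than 3-fold higher on the log2(TPM + 1) scale were 10 (of all genes 4.69%), among them *Nupr1*, listed at 0 TPM in all TB IL-2nil libraries. In 24 the 3 TB IL-2 libraries all lay above the 3 TB IL-2nil libraries (of all genes 22.8%). The median difference was 1.06 over the 30 genes and -0.13 over all genes. With the labels kept, 0 of the 30 passed, with 0 at an unadjusted P under 0.05 and a median of 0.58, and 0.121% of all genes passed. Without both moved libraries 20 passed, all higher (of all genes 32.3%), and with the replicate number as a block 22, all higher (of all genes 50.8%).

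The enzymes that make asparagine, serine, glycine and one-carbon units had the largest median difference of the 4 roles, 2.25, and 5 of 6 were higher. *Psat1*, which makes phosphoserine (chr19:15979168-16021827, minus strand), was at 102, 118 and 118 TPM in the 3 TB IL-2 libraries and at 8.27, 16.2 and 15.7 TPM in TB IL-2nil. Its difference was 3.03 (SE 0.32, adjusted P = 0.000113), the largest of the 30. *Asns*, which makes asparagine (chr6:7625169-7643254, minus strand), was at 10.1, 12.04 and 12.9 TPM with IL-2 and at 1.17, 1.27 and 0.96 TPM without, a difference of 2.57 (SE 0.46, adjusted P = 0.00166). The groups were far apart for both genes, and *Asns* was close to 1 TPM in every TB IL-2nil library. *Phgdh*, the first enzyme of serine synthesis (chr3:98117093-98143913, minus strand), was at 149.6, 145 and 166 TPM against 28.1, 30.7 and 26.8 TPM, a difference of 2.39 (SE 0.26, adjusted P = 0.000114). The mitochondrial one-carbon enzymes *Shmt2* and *Mthfd2* differed by 2.12 and 2.08 (SE 0.26, adjusted P = 0.00024). For *Mthfd2* (chr6:83255685-83267600, minus strand) the libraries were at 84.8, 75.8 and 72.2 TPM and 15.5, 18.4 and 19 TPM. *Psph*, which takes the last step to serine (chr5:130271434-130293129, minus strand), stood apart from the other 5. It was at 17.8, 25.5 and 25.7 TPM with IL-2 and 12.9, 12.6 and 18.9 TPM without, so the groups overlapped, and its difference of 0.61 (SE 0.33, adjusted P = 0.166) did not pass, though it did with the replicate number as a block (adjusted P = 0.0432).

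Of 5 transporters tested, 3 were higher. *Slc7a5*, the light chain of the LAT1 carrier of large neutral amino acids (chr8:124405052-124431594, minus strand), was at 77.1, 109 and 78.4 TPM in TB IL-2 and at 16.9, 15.5 and 9.36 TPM in TB IL-2nil, a difference of 2.60 (SE 0.30, adjusted P = 0.00016). *Slc7a1*, the cationic amino acid transporter that carries arginine (chr5:149138986-149211480, minus strand), was at 43.6, 58.9 and 42.5 TPM and 12.2, 7.46 and 6.45 TPM, a difference of 2.37 (SE 0.27, adjusted P = 0.000136). No TB IL-2nil library reached the lowest TB IL-2 library for either gene. *Slc3a2*, the heavy chain that pairs with Slc7a5, differed less, by 0.96 (SE 0.23, adjusted P = 0.00777). As a description, the ratio of *Slc7a5* to *Slc3a2* in TPM was 1.51, 1.89 and 1.44 in TB IL-2 and 0.56, 0.696 and 0.305 in TB IL-2nil. The glutamine carriers *Slc1a5* and *Slc38a2* differed by 0.35 (SE 0.29, adjusted P = 0.359) and 0.10 (SE 0.24, adjusted P = 0.775) and did not pass.

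Among the 12 synthetases 11 were higher, with a median difference of 1.08 and a range of 0.16 to 1.73. The largest were for alanine and methionine. *Aars* (chr8:113557044-113581564, plus strand) was at 65.5, 54.4 and 56.5 TPM in TB IL-2 and 19.3, 15.9 and 16.1 TPM in TB IL-2nil, a difference of 1.73 (SE 0.25, adjusted P = 0.000553). *Mars* (chr10:126733277-126748842, minus strand) was at 41.7, 39.2 and 44.5 TPM and 15.98, 11.6 and 10.5 TPM, a difference of 1.66 (SE 0.21, adjusted P = 0.000257). The 3 libraries of each group lay close together and far from the other group in both genes. The 3′ end of *Mars* overlaps that of *Ddit3* on the other strand in the mm9 models, and since no source used here says whether strand was used in quantification, reads of this pair are uncertain. *Cars* and *Tars*, for cysteine and threonine, rose by 1.37 and 1.16, with *Cars* at 17.8, 16.8 and 21.7 TPM against 6.58, 5.98 and 7.39 TPM. *Tars* was almost the same in all TB IL-2nil libraries, at 26.1, 26.3 and 26.01 TPM, and more spread in TB IL-2, at 44.2, 88.7 and 54.2 TPM. The serine enzyme *Sars* did not pass, at 39.5, 46.8 and 52.7 TPM against 38.9, 41.5 and 43.2 TPM and a difference of 0.16 (SE 0.24, adjusted P = 0.636). Without both moved libraries, 9 of the 12 passed, as *Iars* (adjusted P = 0.058) and *Nars* (adjusted P = 0.0502) were lost.

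Of the transcription factors and stress targets, 2 of 7 were higher with IL-2. *Atf4* itself (chr15:80085614-80087970, plus strand) was at 106, 110.1 and 156 TPM in TB IL-2 and 56.4, 69.3 and 104 TPM in TB IL-2nil. The groups did not overlap, with the highest TB IL-2nil library just under the lowest TB IL-2 library, and the difference of 0.71 (SE 0.28, adjusted P = 0.0646) did not pass, while without both moved libraries it was 0.95 and did (adjusted P = 0.0203). *Nupr1*, a small stress-induced chromatin protein (chr7:133766763-133770524, minus strand), was listed at 0 in all 3 TB IL-2nil libraries and at 2.92, 3.12 and 1.59 TPM in TB IL-2. On the log2(TPM + 1) scale it differed by 1.80 (SE 0.29, adjusted P = 0.001), and no fold is given against 0. *Sesn2*, an inhibitor of mTORC1 that binds leucine (chr4:132047947-132066416, minus strand), was at 13.1, 11.1 and 10.4 TPM and 6.89, 5.1 and 7.91 TPM, a difference of 0.73 (SE 0.20, adjusted P = 0.0149). *Chac1*, which breaks down glutathione (chr2:119176965-119180117, plus strand), was low in both, at 1.98, 0.922 and 1.13 TPM and 0.092, 0.533 and 0.185 TPM, with a difference of 0.87 (SE 0.57, adjusted P = 0.244). *Cebpb*, a bZIP partner of ATF4 (chr2:167514415-167515918, plus strand), was at 6.03, 15.4 and 12.98 TPM and 4.49, 2.21 and 8.06 TPM, and its difference of 1.11 (SE 0.49, adjusted P = 0.094) did not pass. Neither did the differences of *Ddit3*, the factor CHOP, at -0.58 (SE 0.40, adjusted P = 0.272), and of the pseudokinase gene *Trib3*, at -0.12 (SE 0.62, adjusted P = 0.907). The plot of differences with IL-2 shows the enzymes and synthetases to the right of 0 and the factors spread around it.

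**Figure D1:**
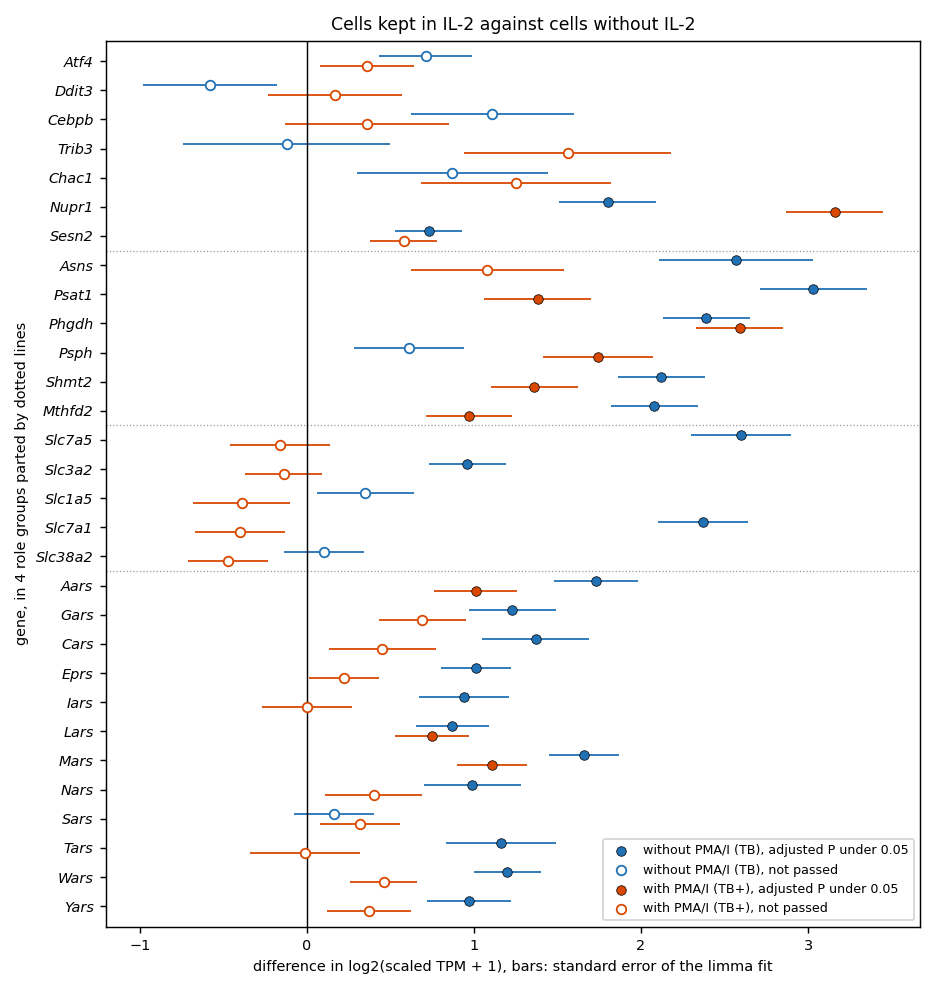
Difference in log2(TPM + 1) between cells with and without IL-2 for the 30 tested genes, without PMA/I (blue) and with PMA/I (orange), with SE bars from the fit of 3 libraries a group. Filled points passed an adjusted P of 0.05. Of the blue points 21 are filled and right of 0, of the orange 9, and no transporter is filled in orange.

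With PMA/I for 2 h, *Atf4* and all 5 tested transporters rose, both with and without IL-2. *Atf4* rose 4.49-fold and 5.73-fold, and *Slc7a1* 4-fold and 27.4-fold. In cells kept in IL-2, 15 of the 30 genes were higher in TB+ IL-2 than in TB IL-2 and none lower, 5 of them more than 3-fold (of all genes tested, 11.8% were higher, 23.3% lower and 3.94% more than 3-fold higher). In cells without IL-2, 23 were higher in TB+ IL-2nil than in TB IL-2nil and 2 lower, 14 of the higher ones more than 3-fold (of all genes, 20.1% were higher, 41.1% lower and 7.78% more than 3-fold higher). The groups did not overlap, with PMA/I above, for 17 and 23 genes (of all genes 16.6% and 21.8%). The medians were 0.81 and 1.58 over the 30 genes, and -0.22 and -0.38 over all genes. Each comparison shares its unstimulated group with the comparison of IL-2 above, so the lists of genes are not independent. With the labels kept, 0 genes passed with IL-2, with 1 at an unadjusted P under 0.05, and 1 without it (*Slc38a2*, adjusted P = 0.042), while 0.498% and 5.38% of all genes passed. Without both moved libraries 14 and 21 passed (of all genes 30.9% and 53.7%), and with the replicate block 17 and 25 (of all genes 46.3% and 69.1%). Without TB+ IL-2 replicate 2, 7 genes passed as higher with PMA/I in the presence of IL-2 (*Atf4*, *Chac1*, *Nupr1*, *Sesn2*, *Slc3a2*, *Slc1a5* and *Slc7a1*) and *Trib3* as lower, at -1.07 (adjusted P = 0.0441), while 25.6% of all genes passed. The values by library, with this one as the square of its group, are shown in the plot of 12 genes.

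**Figure D2:**
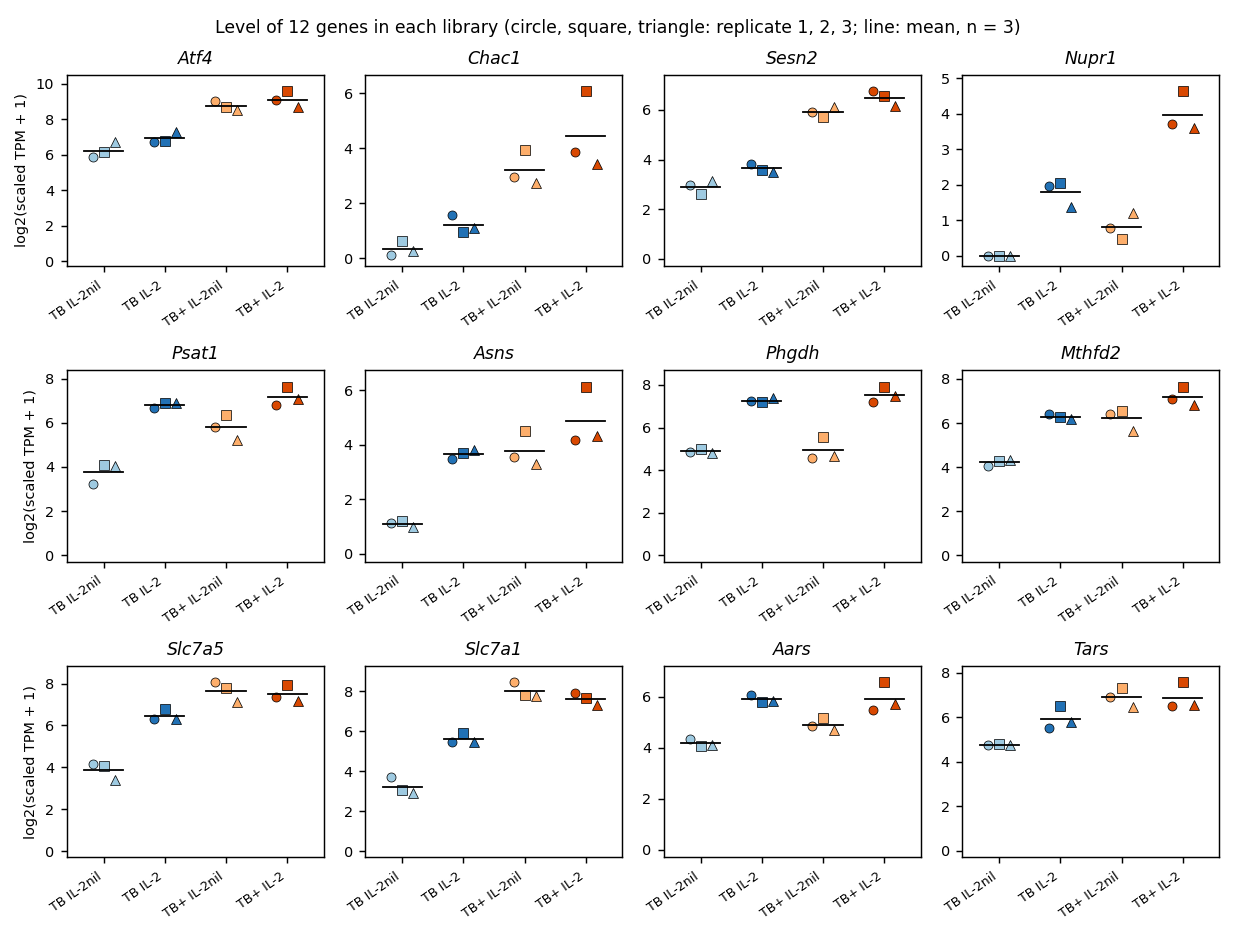
Level of 12 genes in each of the 12 libraries as log2(TPM + 1), by group, with circles, squares and triangles for replicates 1, 2 and 3 and a line at the mean of 3. *Slc7a5* and *Slc7a1* are lowest in TB IL-2nil and highest after PMA/I, *Phgdh* is high in both groups with IL-2, and the square of TB+ IL-2 is the highest point of that group in all panels but *Sesn2* and *Slc7a1*.

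Of the factors and stress targets, 4 of 7 rose with PMA/I in the presence of IL-2 and 5 without it. *Atf4* was at 543, 756 and 409 TPM in TB+ IL-2 and 518, 414 and 371 TPM in TB+ IL-2nil, above every unstimulated library. It rose by 2.17 (SE 0.28, adjusted P = 0.00024) with IL-2 and by 2.52 (SE 0.28, adjusted P = 2.6e-05) without. *Sesn2* was at 107, 94.8 and 70.8 TPM and 59.4, 52.3 and 68.5 TPM, and rose by 2.86 (SE 0.20, adjusted P = 3.64e-06) and 3.01 (SE 0.20, adjusted P = 1.28e-06). The lowest stimulated library of *Sesn2* was well above the highest unstimulated one. *Chac1* reached 13.6, 66.4 and 9.7 TPM with IL-2 and 6.72, 14.5 and 5.61 TPM without, rises of 3.25 (SE 0.57, adjusted P = 0.0015) and 2.88 (SE 0.57, adjusted P = 0.00119). *Nupr1* reached 12, 23.9 and 11.03 TPM in TB+ IL-2 but stayed at 0.733, 0.375 and 1.31 TPM in TB+ IL-2nil, with differences of 2.18 (SE 0.29, adjusted P = 0.000306) and 0.82 (SE 0.29, adjusted P = 0.0306). *Cebpb* was at 9.84, 38.3 and 20.2 TPM in TB+ IL-2 and 12.3, 16.03 and 17.8 TPM in TB+ IL-2nil, and rose without IL-2, by 1.58 (SE 0.49, adjusted P = 0.0163). *Ddit3*, often used as a marker of the stress response, did not pass in either, with differences of -0.07 (SE 0.40, adjusted P = 0.913) with IL-2 and -0.82 (SE 0.40, adjusted P = 0.099) without. *Trib3* fell in cells without IL-2, with a difference of -1.83 (SE 0.62, adjusted P = 0.0243), a call that was lost without both moved libraries (adjusted P = 0.0702), as was the rise of *Nupr1* there (adjusted P = 0.0646).

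All 5 tested transporters rose in both comparisons. *Slc7a1* was at 235, 200.4 and 155 TPM in TB+ IL-2 and 344, 224 and 219 TPM in TB+ IL-2nil. It rose by 2.0 (SE 0.27, adjusted P = 0.000281) with IL-2 and by 4.77 (SE 0.27, adjusted P = 3.8e-07) without, the latter being the largest difference of the 30 genes in any comparison. *Slc7a5* was at 165, 241 and 143 TPM and 264, 218 and 138 TPM, rises of 1.03 (SE 0.30, adjusted P = 0.0214) and 3.79 (SE 0.30, adjusted P = 3.36e-06). The stimulated libraries of both genes overlapped between TB+ IL-2 and TB+ IL-2nil, while the unstimulated ones did not. *Slc3a2*, *Slc1a5* and *Slc38a2* rose by 1.46, 1.51 and 0.77 with IL-2 and by 2.56, 2.25 and 1.33 without. The ratio of *Slc7a5* to *Slc3a2* was 1.15, 1.17 and 1.21 in TB+ IL-2 and 1.22, 1.45 and 0.961 in TB+ IL-2nil. Without TB+ IL-2 replicate 2, 3 of the 5 transporters passed with IL-2, as *Slc7a5* (adjusted P = 0.0883) and *Slc38a2* (adjusted P = 0.107) were lost.

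Of the synthesis enzymes, 1 of 6 rose with PMA/I in cells with IL-2, namely *Mthfd2*, and 4 rose in cells without. *Mthfd2* was at 134, 198 and 112 TPM in TB+ IL-2 and 85.4, 93.1 and 49.2 TPM in TB+ IL-2nil, and rose by 0.89 (SE 0.26, adjusted P = 0.0219) and 2.0 (SE 0.26, adjusted P = 7.17e-05). *Asns* was at 16.9, 68.7 and 18.9 TPM and 10.8, 21.9 and 8.7 TPM. It rose by 2.69 (SE 0.46, adjusted P = 0.000443) without IL-2, and its difference of 1.21 (SE 0.46, adjusted P = 0.062) with IL-2 did not pass, though it did with the replicate block (adjusted P = 0.0211). *Psat1* was at 111, 196 and 134 TPM and 54.7, 80.9 and 36.4 TPM, with differences of 0.35 (SE 0.32, adjusted P = 0.432) and 2.0 (SE 0.32, adjusted P = 0.000301). *Phgdh*, in contrast, was at 146, 239 and 179.9 TPM and 22.9, 46 and 24.8 TPM and did not pass in either, at 0.27 (SE 0.26, adjusted P = 0.446) and 0.06 (SE 0.26, adjusted P = 0.86). *Shmt2* rose by 1.0 without IL-2. *Psph* fell there, from 12.9, 12.6 and 18.9 TPM to 3.2, 8.71 and 9.11 TPM, with a difference of -1.06 (SE 0.33, adjusted P = 0.0163), a call lost without both moved libraries (adjusted P = 0.0788). Of the enzymes of serine synthesis, *Psat1* thus rose without IL-2, *Psph* fell and *Phgdh* did not pass.

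Of the 12 synthetases, 5 rose with PMA/I in cells with IL-2 (*Cars*, *Nars*, *Tars*, *Eprs* and *Iars*, by 0.81 to 0.99) and 9 in cells without. None of the 5 passed without TB+ IL-2 replicate 2, where 3 were at an unadjusted P under 0.05 among the 12. *Tars* (chr15:11313418-11329413, minus strand) was at 89.9, 187 and 92.1 TPM in TB+ IL-2 and 119, 156 and 85.3 TPM in TB+ IL-2nil, and rose by 0.94 (SE 0.33, adjusted P = 0.0457) and 2.12 (SE 0.33, adjusted P = 0.000242). The first of these calls was lost without both moved libraries (adjusted P = 0.0571). *Cars* (chr7:150743135-150785995, minus strand) was at 31.6, 67.1 and 26.02 TPM and 33.7, 32.9 and 18.97 TPM, and rose by 0.99 (SE 0.32, adjusted P = 0.0336) and 1.91 (SE 0.32, adjusted P = 0.0004). Both genes were above all TB IL-2nil libraries in each library after PMA/I. *Aars* and *Mars*, which differed most with IL-2, had differences near 0 with PMA/I in its presence, at 0.02 (SE 0.25, adjusted P = 0.956) and -0.05 (SE 0.21, adjusted P = 0.869). *Aars* was at 43.4, 93.9 and 52.05 TPM in TB+ IL-2, and *Mars* at 33.1, 49.7 and 39.5 TPM. *Aars* rose without IL-2, by 0.74 (SE 0.25, adjusted P = 0.0259), a call lost without both moved libraries (adjusted P = 0.0813). *Lars*, *Mars* and *Sars* did not pass there, at 0.44, 0.50 and -0.24. *Gars* passed with IL-2 with the replicate block alone (adjusted P = 0.0382, against 0.106).

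**Figure D3:**
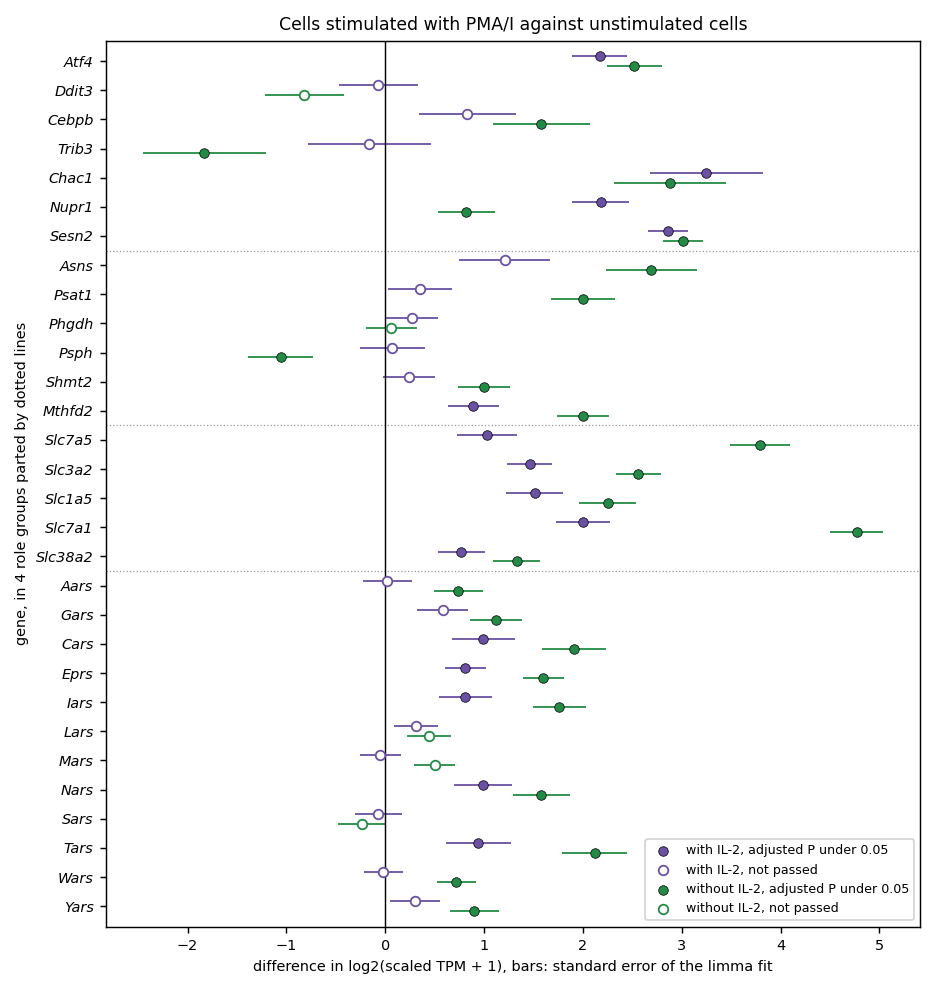
Difference in log2(TPM + 1) between cells with and without PMA/I for the 30 tested genes, in cells with IL-2 (purple) and without IL-2 (green), with SE bars. Filled points passed an adjusted P of 0.05. All 5 transporters are filled in both colours, with green right of purple, and *Trib3* and *Psph* are the filled points left of 0.

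After PMA/I, fewer of these genes passed in the comparison with IL-2. Fewer of all genes passed too, where without PMA/I 17.3% were higher and 22.3% lower. A count of calls does not test whether the effect of IL-2 changed, which the interaction below does. Of the 30, 9 were higher in TB+ IL-2 than in TB+ IL-2nil and none lower, against 12.9% and 8.4% of all genes tested, and 3 were more than 3-fold higher (of all genes 3.21%). They were 5 of the 6 synthesis enzymes, 3 of the 12 synthetases, *Nupr1* and no transporter, and the median was 0.45. In 12 genes all TB+ IL-2 libraries lay above all TB+ IL-2nil libraries (of all genes 18.9%). *Nupr1*, with the values given above, differed by 3.16 (SE 0.29, adjusted P = 0.000101), and its groups were far apart. *Phgdh* differed by 2.59 (SE 0.26, adjusted P = 0.000139), with every TB+ IL-2 library above 145 TPM and every TB+ IL-2nil library at or below 46.0 TPM. *Psph* was at 18.1, 29.4 and 25.3 TPM and 3.2, 8.71 and 9.11 TPM, a difference of 1.74 (SE 0.33, adjusted P = 0.00461). *Psat1*, *Shmt2* and *Mthfd2* differed by 1.38, 1.36 and 0.97, and *Mars*, *Aars* and *Lars* by 1.11, 1.01 and 0.75. *Mars* in TB+ IL-2nil was at 19.9, 21.2 and 14.2 TPM and *Aars* at 28.3, 34.8 and 24.8 TPM, below all TB+ IL-2 libraries. The 5 transporters differed by -0.47 to -0.14 and none passed. With the labels kept 0 of the 30 passed, with 2 at an unadjusted P under 0.05 (of all genes 0.217% passed). Without both moved libraries 9 passed (of all genes 9.71%), with *Sesn2* (adjusted P = 0.0485) in place of *Aars* (adjusted P = 0.0509). Without TB+ IL-2 replicate 2, 6 genes passed (of all genes 14.4%), as *Psat1*, *Mthfd2* and *Lars* were lost (adjusted P = 0.0503, 0.0846 and 0.101). With the replicate block 12 passed (of all genes 33.6%), adding *Sesn2*, *Asns* and *Gars* (adjusted P = 0.043, 0.0431 and 0.026).

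Whether the effect of IL-2 differed with and without PMA/I was tested as the interaction, which is the difference with IL-2 in TB+ less that in TB. It passed for 2 of the 30 genes, both transporters and both negative, against 2.66% of all genes tested that were negative and 1.57% positive. *Slc7a1* had an interaction of -2.77 (SE 0.38, adjusted P = 0.0108) and *Slc7a5* of -2.76 (SE 0.42, adjusted P = 0.0125). For both, IL-2 went with more mRNA in unstimulated cells and with no called difference after PMA/I, where the values were -0.40 (SE 0.27, adjusted P = 0.307) and -0.16 (SE 0.30, adjusted P = 0.746). Neither passed without both moved libraries (adjusted P = 0.0583 and 0.0626), although the values were -2.44 and -2.35, or with the labels kept (adjusted P = 0.914 for both). Of all genes 0.0324% and 0.0% passed in these fits. With the replicate block 6 passed (of all genes 11.9%), adding *Psat1* at -1.65 (adjusted P = 0.0228), *Tars* at -1.17 (adjusted P = 0.0451), *Mthfd2* at -1.11 (adjusted P = 0.0493) and, with a positive value, *Psph* at 1.13 (adjusted P = 0.0471). For *Nupr1* the interaction was 1.36 (SE 0.42, adjusted P = 0.0878) and for *Atf4* -0.35 (SE 0.40, adjusted P = 0.628). The factors and the transporters had medians of 0.37 and -1.10, the enzymes and synthetases of -0.94 and -0.66, beside 0.16 over all genes.

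Ordered by group means of log2(TPM + 1), TB IL-2nil was the lowest of the 4 groups for 26 of the 30 genes, as for 20.4% of all genes tested, and TB+ IL-2 the highest for 18, as for 10.1% of all genes. The 4 genes with another lowest group were *Ddit3*, *Trib3*, *Psph* and *Sars*, all lowest in TB+ IL-2nil. *Mars*, *Wars* and *Sars* were highest in TB IL-2, and all 5 transporters, *Iars* and *Tars* in TB+ IL-2nil. *Ddit3* and *Trib3* were highest in TB IL-2nil. For *Iars* and *Tars* this order turned on the scale, since their means in TPM were 77.2 and 123 in TB+ IL-2 and 76.2 and 120.4 in TB+ IL-2nil. It did so for *Trib3* too, with means of 20.2 TPM in TB+ IL-2 and 16.3 TPM in TB IL-2nil. The test did not separate some neighbours in this order, such as *Slc7a5* and *Slc7a1* in TB+ IL-2 and TB+ IL-2nil or *Phgdh* in TB IL-2 and TB+ IL-2. The roles were also summed in TPM. The synthesis enzymes together made up 423, 441 and 476 TPM in TB IL-2 and 80.6, 91.04 and 100.2 TPM in TB IL-2nil, with 490.4, 838 and 546 TPM in TB+ IL-2 and 210.4, 290.2 and 149.8 TPM in TB+ IL-2nil. They were lower in every library without IL-2 than in any library with it. The transporters were at 199, 156 and 223 TPM in TB IL-2nil, 333, 372 and 353 TPM in TB IL-2, 936, 1064 and 712 TPM in TB+ IL-2 and 1526, 1015 and 897 TPM in TB+ IL-2nil. They were higher in every library with PMA/I than in any without it, and the groups with and without IL-2 overlapped after PMA/I.

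**Figure D4:**
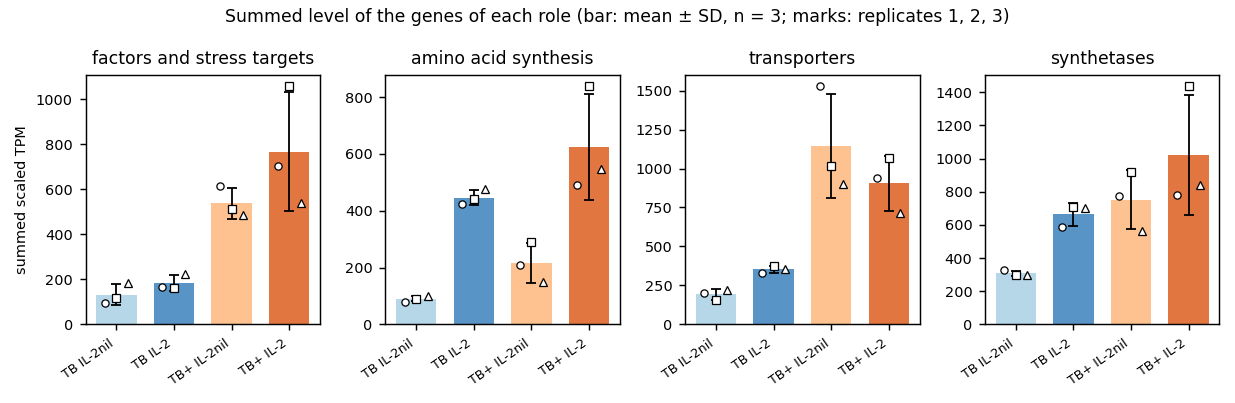
Summed TPM of the genes of each role by group, with bars for the mean, error bars for the SD (n = 3) and marks for the 3 libraries. The synthesis enzymes are higher with IL-2 and the transporters with PMA/I, while the synthetases are lowest in TB IL-2nil (299.9 to 327 TPM) and the square of TB+ IL-2 is the highest mark in 3 of the 4 panels.

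Related genes were counted from lists set with earlier results of these data known. Of the 11 genes for other cytosolic synthetases and their scaffold proteins, 8 were higher in TB IL-2 than in TB IL-2nil and none lower, with a median of 0.90 (of all genes 17.3% were higher and 22.3% lower). The largest difference was that of the scaffold gene *Eef1e1*, at 1.64 (SE 0.43, adjusted P = 0.0112), and the lowest that of *Qars*, at -0.14 (SE 0.17, adjusted P = 0.542). With PMA/I, 1 of the 11 rose in cells with IL-2 (of all genes 11.8%), again *Eef1e1*, at 1.77 (SE 0.43, adjusted P = 0.00843). In cells without IL-2, 7 rose (of all genes 20.1%), with *Eef1e1* at 3.65 (SE 0.43, adjusted P = 3.48e-05), and *Vars*, the valine enzyme, fell, at -1.0 (SE 0.17, adjusted P = 0.000452). The 17 mitochondrial synthetases, which serve the translation of mitochondrial genes, had 1 gene higher and 3 lower in TB IL-2 and a median of 0.05, near the 22.3% of all genes that were lower. The lowest was *Wars2*, at -0.85 (SE 0.22, adjusted P = 0.00988). PMA/I without IL-2 went with 2 higher and 9 lower of the 17, where 20.1% of all genes were higher and 41.1% lower, with *Yars2* at 1.71 (SE 0.23, adjusted P = 8.74e-05) and *Hars2* at -1.59 (SE 0.19, adjusted P = 3.34e-05) at the ends. *Lars2* was at 218, 5958 and 72.2 TPM in TB IL-2, so that 1 library was far above all others, and its difference of 1.59 (SE 1.24, adjusted P = 0.329) did not pass. The difference between cytosolic and mitochondrial lists was not tested.

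**Figure D5:**
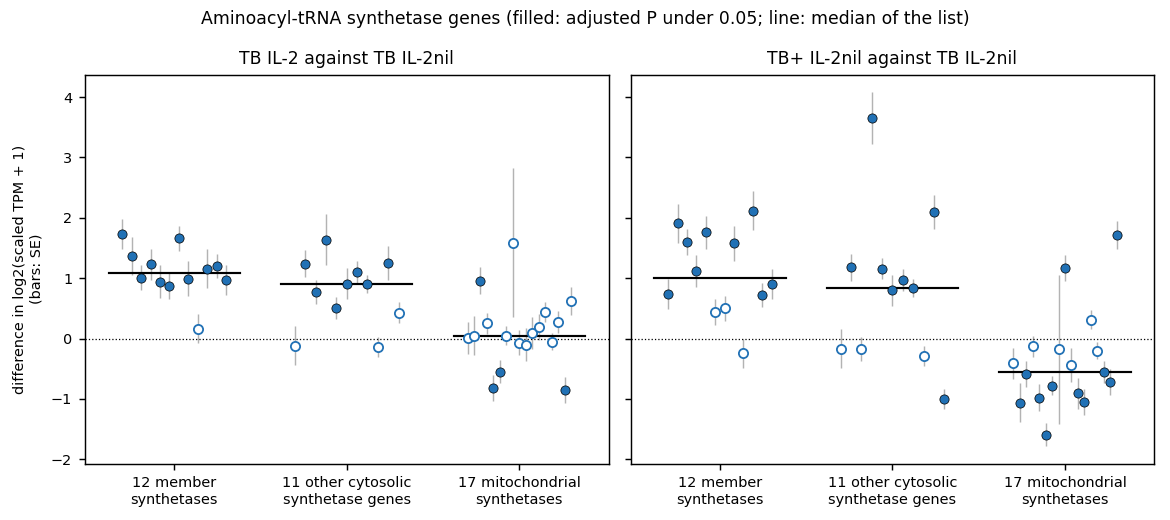
Difference in log2(TPM + 1) with SE bars for the genes of 3 lists of synthetases, between TB IL-2 and TB IL-2nil (left) and between TB+ IL-2nil and TB IL-2nil (right), with filled points for an adjusted P under 0.05 and a line at the median of each list. The medians of the cytosolic lists are 1.08 and 0.90 on the left, that of the mitochondrial list is 0.05, and on the right 9 mitochondrial synthetases are filled below 0.

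Of 23 other genes known as ATF4 targets 19 were tested, and 7 were higher and none lower in TB IL-2 than in TB IL-2nil, with a median of 0.54, where 17.3% of all genes were higher and 22.3% lower. *Stc2*, a secreted glycoprotein, had the largest difference, at 2.30 (SE 0.36, adjusted P = 0.000776). *Atf3*, a bZIP factor gene that many signals induce, had the largest rise with PMA/I, at 6.56 (SE 0.31, adjusted P = 1.92e-07) with IL-2 and 8.94 (SE 0.31, adjusted P = 1.58e-08) without, from 1.88, 2.15 and 2.46 TPM in TB IL-2 and 0.214, 0.413 and 0.791 TPM in TB IL-2nil to 379, 273 and 249.9 TPM in TB+ IL-2 and 1155, 431 and 723 TPM in TB+ IL-2nil. *Ddit4*, another inhibitor of mTORC1, fell, at -1.52 (SE 0.48, adjusted P = 0.0316) with IL-2 and -2.43 (SE 0.48, adjusted P = 0.00122) without. With IL-2 the groups overlapped through TB+ IL-2 replicate 2, at 8.3, 43.9 and 13.3 TPM in TB+ IL-2 and 60.8, 55 and 39.5 TPM in TB IL-2. Without IL-2 they did not, at 3.63, 6.29 and 9.56 TPM in TB+ IL-2nil and 37.9, 39.1 and 34.5 TPM in TB IL-2nil. With PMA/I 6 of the 19 rose and 1 fell in cells with IL-2 (of all genes 11.8% and 23.3%), and 9 rose and 1 fell without (of all genes 20.1% and 41.1%). The interaction of *Atf3* was -2.38 (SE 0.44, adjusted P = 0.0226).

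Of 16 genes for kinases, phosphatase subunits and parts of eIF2 and eIF2B, the upstream part of the pathway, 6 were higher and 1 lower in TB IL-2 than in TB IL-2nil, with a median of 0.31 (of all genes 17.3% were higher and 22.3% lower). *Eif2b3* was at one end, at 1.21 (SE 0.39, adjusted P = 0.0298), and *Ppp1r15a*, whose product GADD34 brings phosphatase to eIF2, at the other, at -0.99 (SE 0.66, adjusted P = 0.253), which did not pass. *Ppp1r15a* rose with PMA/I, by 3.24 (SE 0.66, adjusted P = 0.00351) with IL-2 and 3.04 (SE 0.66, adjusted P = 0.00214) without. The gene of the kinase PERK, *Eif2ak3*, fell in both, with differences of -1.54 (SE 0.34, adjusted P = 0.00556) and -1.87 (SE 0.34, adjusted P = 0.000709). Among 12 genes of the ATF6 and XBP1 arms of endoplasmic reticulum stress, 6 were higher and 2 lower in TB IL-2 than in TB IL-2nil. Their median was 0.51, and of all genes 17.3% were higher and 22.3% lower. *Ern1*, the gene of the stress sensor IRE1, was the lowest, at -1.30 (SE 0.26, adjusted P = 0.00272). *Sdf2l1*, a chaperone cofactor, had the largest difference with IL-2, at 2.74 (SE 0.18, adjusted P = 1.35e-05) without PMA/I and 2.56 (SE 0.18, adjusted P = 2.82e-05) with it. *Hspa5*, the chaperone BiP, had the largest with PMA/I, at 2.07 (SE 0.34, adjusted P = 0.00111) with IL-2 and 3.64 (SE 0.34, adjusted P = 9.47e-06) without. The 12 genes did not move together with PMA/I. In cells without IL-2, *Hspa5*, *Dnajb9*, *Xbp1* and *Atf6* lay above all TB IL-2nil libraries in every TB+ IL-2nil library. *Pdia4*, *Edem1*, *Ern1*, *Syvn1* and *Dnajc3* lay below them, and *Hsp90b1*, *Sdf2l1* and *Creld2* overlapped. Of all genes tested, 21.8% lay above in this way, and 41.1% were lower at an adjusted P under 0.05 in limma. *Dnajc3* was at 16.8, 18.5 and 21.4 TPM in TB+ IL-2nil against 39.9, 47.8 and 44.6 TPM in TB IL-2nil.

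The share of higher calls over all genes depended on the scaling. In TB+ IL-2nil against TB IL-2nil, 32.8% of called genes were higher, against 49.8% with median-of-ratios scaling, 43.5% with quantile normalization and 17.6% with no scaling, and the median of all genes was -0.38, -0.08, -0.14 and -0.78. In TB+ IL-2 against TB IL-2 the shares were 33.6%, 53.3%, 46.4% and 38.4%, with medians of -0.22, -0.03, -0.10 and -0.29, and in TB+ IL-2 against TB+ IL-2nil 60.5%, 52.1%, 56.9% and 96.1%, with medians of -0.04, -0.08, -0.07 and 0.23. For the interaction, 37.1% of calls were positive, 22.6% with median-of-ratios scaling, 32.2% with quantile normalization and 0 of 1 call with no scaling, where the median was 0.51 in place of 0.16. None of the 72 calls described for the 30 genes changed sign under the 3 other scalings.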

How the data were processed

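The authors sequenced 12 libraries of total RNA, depleted of rRNA, from a directional kit. Per the submitters' processing notes, reads were trimmed with Trimmomatic 0.32, aligned to mm9 with HISAT2 2.1.0 and quantified with StringTie 1.3.3. The deposited values are FPKM per gene name, which the authors made for each library with no scaling between libraries. The methods name TPM instead, which the column sums (193815 to 420487) go against. Read counts are not known, so no counting interval is given. Relative depth from the steps between low values spanned 3.05-fold (TB IL-2nil replicate 2 lowest), and short non-coding RNAs made up 16.6% to 53.2% of a library.

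Here each library was rescaled to 1000000 TPM, genes that never exceeded 1 TPM were dropped, and 75th percentiles were set equal. The log2(TPM + 1) values, a scale that understates changes of low genes, went into a linear model of the 4 groups with limma 3.58.1 in R 4.3.3, with 8 residual degrees of freedom and Benjamini-Hochberg adjustment over all 12442 genes. Python 3.11.15, pandas 2.3.3, numpy 2.4.6 and matplotlib 3.10.9 did the rest. The fit was tested on simulated data. Genes, lists, roles and tests were chosen with earlier results of these data known. Values in every library are given for *Atf4*, for the 2 genes of each role with the largest difference with IL-2 in unstimulated cells and the 2 with PMA/I, and for genes past 3-fold between TB+ IL-2 and TB+ IL-2nil or past the interaction. *Sars*, and the values by library of *Trib3*, *Atf3*, *Lars2*, *Ddit4* and *Dnajc3*, were added after values were seen. From related lists, only genes with the largest difference in a direction and comparison are named, and not all of these. The list of the ATF6 and XBP1 arms is an exception, where all 12 genes are named. Libraries with the same replicate number of the labels deviated together from their group means (all 18 correlations over 0.1, from 0.101 to 0.531). Pairs of libraries with different numbers had correlations from -0.416 to 0.171, so the ranges overlapped. A fit with the number as a block is therefore given where it changes a call. What libraries of 1 number share is not given in the sources used here. Promoter sequences are from RefSeq (GRCm38.p6), of which 1 is not reported here, and gene coordinates from GENCODE M1.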

Additional observations from a re-analysis of the deposited data

Results flagged for a closer look

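The effect of IL-2 differed with PMA/I for 2 transporters by the test of the difference itself. *Slc7a1* had an interaction of -2.77 and *Slc7a5* of -2.76 on the log2(TPM + 1) scale, with adjusted P of 0.0108 and 0.0125 in limma. The differences with IL-2 were 2.37 and 2.60 without PMA/I, and -0.40 and -0.16 with it. Both were higher with IL-2 in every unstimulated library, while the libraries with PMA/I overlapped. Neither interaction passed in limma without both moved libraries (adjusted P = 0.0583 and 0.0626), with the labels kept or with no scaling. Groups held 3 libraries, too few for a test of single outlying samples.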

How the results depend on the processing

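With both moved libraries left in their labelled groups, 0 of the 30 genes passed in TB IL-2 against TB IL-2nil, TB+ IL-2 against TB IL-2, TB+ IL-2 against TB+ IL-2nil and the interaction, and 1 in TB+ IL-2nil against TB IL-2nil, with 0 past 3-fold in any. There 3 of 72 calls reversed, namely *Sesn2* with IL-2 in unstimulated cells (-0.27), *Slc7a5* with PMA/I in IL-2 (-0.24) and *Nupr1* with PMA/I without IL-2 (-0.38). Without both libraries, 62 of 72 calls held and the interaction gave 0.

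With no scaling, 8 genes passed in TB+ IL-2 against TB IL-2, 9 were past 3-fold in TB+ IL-2nil against TB IL-2nil, 5 in TB+ IL-2 against TB+ IL-2nil, and 0 passed the interaction, which quantile normalization raised to 5. The cause was not tested. The replicate block raised the interaction to 6 and gave 22 in TB IL-2 against TB IL-2nil, 17 in TB+ IL-2 against TB IL-2 and 12 in TB+ IL-2 against TB+ IL-2nil, with 25 in TB+ IL-2nil against TB IL-2nil, as without the block. It lost none of the 72 calls.

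Leaving out 1 library at a time gave 18 to 22 genes (9 to 10 past 3-fold) in TB IL-2 against TB IL-2nil, 8 to 16 (5 to 7) in TB+ IL-2 against TB IL-2, 21 to 26 (14 to 16) in TB+ IL-2nil against TB IL-2nil, 6 to 11 (2 to 4) in TB+ IL-2 against TB+ IL-2nil, and 2 to 7 in the interaction. In TB+ IL-2 against TB IL-2, 8 passed without TB IL-2 replicate 1, 9 without TB IL-2 replicate 3 and 8 without TB+ IL-2 replicate 2. The interaction gave 7 without TB+ IL-2nil replicate 3. Between 61 and 72 of the 72 calls held, and none reversed. Trend with robust fitting, a filter of 1 TPM in 3 libraries and removal of short RNAs kept all 72 calls, pseudocounts of 0.1 and 4 each kept 71, median-of-ratios scaling 70, no filter 69, quantile normalization 65 and no scaling 51. Fits of only the compared groups kept 64 of 70. Genes near 1 TPM, such as *Chac1* and *Nupr1* without PMA/I, are limited by depth that is unknown here.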
